A study of Mus musculus with 661 samples.

Results

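The genes described here are the matrix metalloproteinases (MMPs), the ADAMTS proteases, the ADAMTS-like proteins and the tissue inhibitors of metalloproteinases (TIMPs) in stromal and endothelial cells of mouse bone marrow. They were chosen by symbol, as Mmp, Adamts or Adamtsl followed by a number, or *Timp1* to *Timp4*, which took 51 of 45771 nuclear genes. *Mmp27* filled 2 entries of the count table, which were summed. By role, the members were 4 collagenases, 2 gelatinases, 4 stromelysins and matrilysin, 6 membrane-anchored MMPs, 7 remaining MMPs, 7 proteoglycan-cleaving ADAMTS, 3 procollagen-cleaving ADAMTS, 9 other ADAMTS, 5 ADAMTS-like proteins and 4 TIMPs.

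MMPs are zinc proteases that cleave collagens and other proteins of the extracellular matrix, and most are made as inactive precursors that other proteases or a membrane-anchored MMP switch on. ADAMTS proteases cut proteoglycans such as aggrecan and versican, trim the ends of procollagens or act on microfibrils, and the ADAMTS-like proteins share their binding domains without the protease domain. TIMPs bind and block these enzymes, and in bone the balance of proteases and inhibitors takes part in cartilage replacement, matrix turnover and vessel growth.

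Single cells of C57BL/6 mice of both sexes, young at 2 months or old at 24 months, had been sorted into 6 populations and sequenced on plates by a modified Smart-Seq2 protocol without molecular identifiers. MSC-L (LepR+ mesenchymal stromal cells, gated LepR+/PDGFRα+/CD51+ and negative for Sca-1, CD31, Ter119 and CD45) and sinusoidal endothelial cells (SEC, CD31+/Sca-1lo/CD105hi) came from marrow plugs digested in short rounds. MSC-S (Sca-1+/CD51+ mesenchymal stromal cells), osteoprogenitors (OPr, Sca-1-/CD51+/PDGFRα-/LepR-), multipotent osteoprogenitors (mOPr, Sca-1-/CD51+/PDGFRα+/LepR-) and arteriolar endothelial cells (AEC, CD31+/Sca-1hi/CD105lo) came from crushed bone digested with collagenase. Site and digestion therefore cannot be told apart from cell type between MSC-L and MSC-S or between AEC and SEC. The authors give 3 young and 4 old mice, but the labels name no mouse, so each population at each age was handled as 1 sample of pooled cells, with no test between groups.

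Of 661 deposited cells, 8 with *Il1b* at 1000 CPM or more (CPM, scaled to nuclear counts) were left out, all of them old OPr in cluster M5. Their *Il1b* ran from 1229 to 29522 CPM, where the highest kept cell had 61.5 CPM, and each carried 11 to 14 of 15 hematopoietic markers at 10 CPM or more. The 653 kept cells were 53 young and 58 old MSC-L cells, 59 young and 59 old MSC-S cells, 44 young and 21 old OPr cells, 26 young and 26 old mOPr cells, 84 young and 82 old AEC cells and 70 young and 71 old SEC cells. Nuclear counts per kept cell ran from 57517 to 1488549. The median of nuclear counts per cell in young and old cells was 463538 and 352562 in MSC-L, 602470 and 693396 in MSC-S, 686077 and 775926 in OPr, 516984 and 444242 in mOPr, 409992 and 414261 in AEC, and 314844 and 302201 in SEC. The library numbers in the labels fell into 3 ranges, and SEC lay in range 3 alone, the mesenchymal cells in ranges 1 and 2, and AEC in all 3.

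The marker lists of MSC-L, MSC-S, AEC and SEC were highest under their own label, with overlaps. The 5 MSC-L markers, led by *Cxcl12*, summed to 56221 and 45951 CPM in young and old MSC-L and to 519 and 1193 CPM in MSC-S. The 5 MSC-S markers, which include *Ly6a* and *Pdgfra*, summed to 2854 and 3277 CPM in MSC-S and 602 and 703 in MSC-L. The MSC-S list also reached 2394 and 2561 CPM in AEC, mostly *Ly6a*, and the MSC-L list 6625 and 4109.6 CPM in SEC, mostly *Cxcl12*. The 5 endothelial markers summed to 4722 and 4413 CPM in AEC, 3894 and 4075 in SEC and at most 44.9 in a mesenchymal group. The 5 arteriolar markers reached 2883 and 3526 CPM in AEC, and the 5 sinusoidal markers 17944 and 13479.5 CPM in SEC. The 8 neutrophil, 6 osteoclast and 3 adipocyte markers summed to at most 44.6, 624 and 29.6 CPM in a group, the osteoclast sum in young MSC-S being mostly *Ctsk*. By deposited cluster, 10 of 21 old OPr and 14 of 26 old mOPr cells were MSC-L-like (clusters M1 and M2), against 3 of 44 and 2 of 26 young ones, so values from cells of the cluster identity alone stand beside those of the whole sort below. OPr-like means M3 to M5, MSC-S-like M6 to M16, AEC-like E3 and E4, and SEC-like E7, and 16 of the 26 young mOPr cells were MSC-S-like.

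Levels are CPM of the counts summed over a group's cells, and levels of different genes are compared as CPM per kilobase of exon. Log2 ratios compare (CPM + 1) of 2 groups and are called past 2-fold at 1 or more in size, for genes that had 100 counts or more in the 2 groups together, in 5 cells or more. A difference is called held when it was past 2-fold, had 1 direction in each library-number range with at least 5 cells per group, and was still past 2-fold without the highest cell of each group. Intervals are exact Poisson or Clopper-Pearson intervals at 95% and, without molecular identifiers, cover counting error only, not the spread between cells or mice. Where a single range, a cluster identity or the loss of the highest cells leaves a group with 0 to 3 counts of a gene, the log2 ratio printed for that setting depends on the added 1 CPM and is no bound. Held members followed in another setting are counted by the size of the ratio alone, without the filter. Counts over all members past 2-fold in a setting apply the filter there, unless the setting drops it. Over 6 comparisons of ages and 3 of young populations, 40 members passed the filter in at least 1 comparison, 21 in all and 11 in none. A difference held in at least 1 comparison for 35 of these 40 (87.5%, against 72.1% of all genes that passed in any), and between ages for 32 of 39 (82.1%, against 55.6%).

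Mesenchymal and endothelial populations carried different members. Averaged over the 12 groups, the 10 highest members were *Mmp2* at 224 CPM per kb, *Timp2* at 203, *Adamts1* at 175, *Timp1* at 134, *Mmp13* at 94.3, *Timp3* at 79.4, *Mmp3* at 60.2, *Adamts2* at 33.4, *Mmp23* at 30.8 and *Mmp14* at 29.3. The 3 highest per kilobase over both ages were *Mmp13*, *Mmp23* and *Timp2* in MSC-L, *Mmp2*, *Timp2* and *Timp1* in MSC-S, *Timp1*, *Mmp13* and *Mmp2* in OPr, and *Mmp2*, *Timp2* and *Mmp3* in mOPr. In AEC they were *Adamts1*, *Timp3* and *Timp2*, and in SEC *Adamts1*, *Timp3* and *Adamts5*. These ranks average both ages. *Mmp13* in OPr stood at 1.61 CPM per kb in young and 318 in old cells, and *Mmp3* in mOPr at 540 and 0.267. All members together summed to 855 and 719.9 CPM per kb in young and old MSC-L, 2049.7 and 2012 in MSC-S, 1087 and 1033 in OPr, 2013 and 1547 in mOPr, 777 and 894 in AEC and 880.0 and 729 in SEC. ADAMTS proteases made up 59.2% and 56.3% of that sum in young and old AEC and 69.3% and 57.1% in SEC, and at most 29.3% in a mesenchymal group. MMPs took 47.1% and 40.99% in MSC-L, 38.1% and 39.7% in MSC-S, 32.5% and 51.3% in OPr and 64.3% and 53.4% in mOPr, against 7.72% and 4.94% in AEC and 8.60% and 11.1% in SEC. TIMPs took 23.1% and 24.6% in MSC-L, 51.5% and 46.6% in MSC-S, 56.6% and 22.7% in OPr, 28.4% and 20.4% in mOPr, 30.9% and 36.8% in AEC and 21.6% and 31.1% in SEC. TIMPs summed to 615 and 234 CPM per kb in young and old OPr. Of the 529.7 CPM per kb of MMPs in old OPr, *Mmp13* made up 318, with 86.7% of its counts in 1 cell. At 10 CPM or more the median cell held 6 to 11 members, by group, and with at least 1 count in cells thinned to 100000 counts the medians ran from 7.00 to 12.

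**Figure D1:**
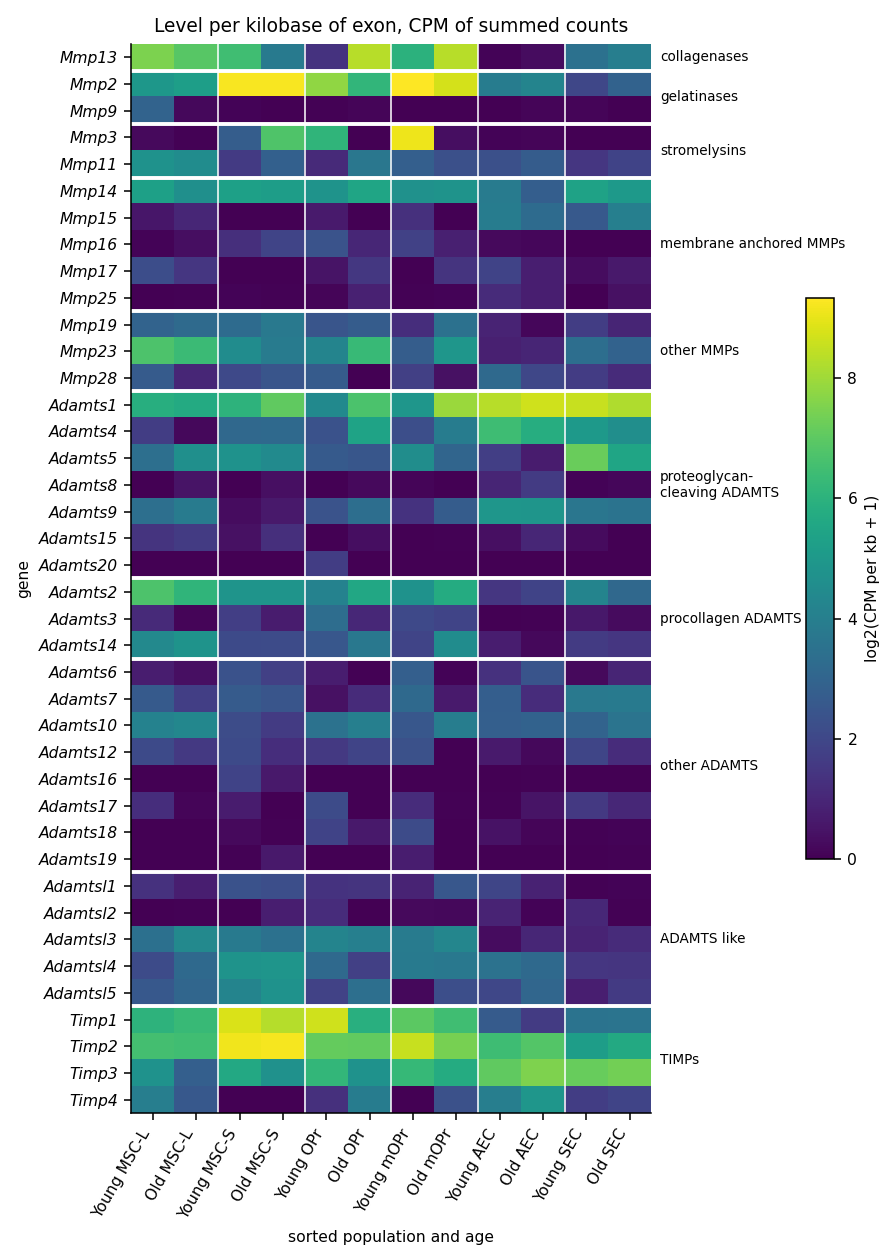
Levels of the 40 members that passed the filter in at least 1 comparison, as log2(CPM per kb + 1), in the 12 groups of population and age, ordered by role. *Adamts1* and *Timp3* are high in the endothelial columns and *Mmp2* and *Timp2* in the MSC-S and mOPr columns.

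*Mmp13*, the collagenase of cartilage and bone, was the only collagenase that passed the filter in any comparison. It stood at 478 and 317 CPM in young and old MSC-L, 233 and 36.1 in MSC-S, 4.30 and 851 in OPr, 169 and 868 in mOPr, 0.201 and 0.660 in AEC and 27.3 and 39.9 in SEC. MSC-L at both ages and old OPr and mOPr were thus high, young OPr and all endothelial groups low, and young MSC-S and mOPr lay between. Its cells were few outside MSC-L, since the share at 10 CPM or more was 50.9% (95% interval 36.8% to 64.9%) in young and 46.6% (95% interval 33.3% to 60.1%) in old MSC-L, 8.47% and 1.69% in MSC-S, 4.55% and 19.05% in OPr and 19.2% and 19.2% in mOPr. Single young MSC-L cells ran from 0 to 5873 CPM with a median of 12.9, single old OPr cells from 0 to 18324 with a median of 1.29, and single old mOPr cells from 0 to 14419 with a median of 0. Of its counts, 1 cell held 86.7% in old OPr, 75.5% in young MSC-S and 99.7% in old MSC-S, so these levels rest on a few cells. *Mmp8*, the neutrophil collagenase, and the interstitial collagenase genes *Mmp1a* and *Mmp1b* stayed at or below 0.410 CPM in every group of kept cells.

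*Mmp2*, a gelatinase that also cuts type IV collagen of basement membranes, stood at 101 and 123 CPM in young and old MSC-L, 2061 and 2029 in MSC-S, 746 and 236 in OPr, 2173 and 1438 in mOPr, 47.1 and 58.7 in AEC and 10.1 and 22.2 in SEC. MSC-S and mOPr were the high populations, OPr came next, and MSC-L and the endothelial cells were low. The level was broad over cells: young MSC-S ran from 0 to 12772 CPM with a median of 948, old MSC-S from 0 to 11074 with a median of 1752, and young mOPr from 0 to 12531 with a median of 1045. At 10 CPM or more it was found in 69.5% (95% interval 56.1% to 80.8%) of young and 86.4% (95% interval 75.02% to 93.96%) of old MSC-S, and in 24.5% and 29.3% of young and old MSC-L. *Mmp9*, the other gelatinase, reached 24.1 CPM in young MSC-L, where 2 of 53 cells carried a count, and at most 0.513 CPM in the other 11 groups. The 8 cells left out for *Il1b* had 3072 CPM of *Mmp9* (95% interval 3025 to 3119), with a count in 8 of 8, and 612 CPM of *Mmp8* (95% interval 591 to 634) in 6, against 0.374 and 0.125 CPM in the kept old OPr. *Timp2*, at 278 CPM, was the only other member to pass the filter in them.

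*Mmp3*, a stromelysin that can switch on other MMPs, stood at 0.307 and 0.0513 CPM in young and old MSC-L, 10.5 and 192 in MSC-S, 123 and 0 in OPr, 973 and 0.481 in mOPr, 0.115 and 0.172 in AEC and 0 and 0 in SEC. Young mOPr were highest, old MSC-S and young OPr followed, and MSC-L, AEC, SEC, old OPr and old mOPr were near or at 0. The absence of a count in old OPr allows up to 0.230 CPM. Single young mOPr cells ran from 0 to 14979.6 CPM with a median of 1.93, with a count in 15 of 26 cells, young OPr cells from 0 to 5287 with a median of 0, and old MSC-S cells from 0 to 12654 with a median of 0. In old MSC-S 1 cell held 80.9% of the counts. *Mmp11*, a stromelysin that furin processes, was highest in MSC-L, at 72.6 and 62.1 CPM in young and old cells, and elsewhere ran from 3.17 CPM in young OPr to 33.8 CPM in old OPr. *Mmp10*, a stromelysin near *Mmp3* on the same chromosome, reached 1.71 CPM in young mOPr and at most 0.230 CPM elsewhere. *Mmp7*, matrilysin, had no count in any kept cell.

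Of the membrane-anchored MMPs, *Mmp14*, which activates the MMP2 precursor at the cell surface with TIMP2, was the most even member of its role over the populations. It stood at 229.8 and 144 CPM in young and old MSC-L, 229.6 and 211 in MSC-S, 161 and 258 in OPr, 152 and 161 in mOPr, 81.4 and 35.6 in AEC and 245 and 184 in SEC, lowest in old AEC. *Mmp15* was an endothelial member at 76.4 and 47.1 CPM in young and old AEC and 27.5 and 83.4 in SEC, and no mesenchymal group passed 7.95 CPM. *Mmp16* reached 37.2 CPM in young OPr and *Mmp17* 24.2 CPM in young MSC-L, and *Mmp24* and *Mmp25* stayed at or below 2.17 and 6.57 CPM. Among the remaining MMPs, *Mmp23*, a guide gene of the mesenchymal clusters, stood at 248 and 188 CPM in young and old MSC-L, 52.7 and 32.2 in MSC-S, 41.3 and 179 in OPr, 13.4 and 67.9 in mOPr, 1.81 and 2.18 in AEC and 22.1 and 15.7 in SEC, high in MSC-L and old OPr and low in AEC. *Mmp19* reached 44.97 CPM in old MSC-S and *Mmp28*, epilysin, 31.4 CPM in young AEC. *Mmp12*, the macrophage elastase, *Mmp20*, the enamel protease, *Mmp21* and *Mmp27* stayed at or below 3.68 CPM.

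The proteoglycan-cleaving ADAMTS included the highest endothelial member. *Adamts1*, a versican- and aggrecan-cleaving protease, stood at 303 and 274 CPM in young and old MSC-L, 338 and 708 in MSC-S, 110.1 and 545 in OPr, 155 and 1304 in mOPr, 1717 and 2121 in AEC and 1992 and 1596 in SEC. Endothelial groups were highest, old mOPr came close to them, and young OPr and mOPr were lowest. Old AEC cells ran from 0 to 8669 CPM with a median of 1309, young SEC cells from 0 to 15848 with a median of 829, and *Adamts1* was at 10 CPM or more in 92.9% (95% interval 84.1% to 97.6%) of young SEC. *Adamts5*, an aggrecan-cleaving protease and a guide gene of the endothelial clusters, stood at 104 and 262 CPM in young and old MSC-L, 281 and 227 in MSC-S, 56.01 and 50.7 in OPr, 245 and 78.5 in mOPr, 25.2 and 7.00 in AEC and 1583 and 471 in SEC. Young SEC stood above every other group, with cells from 4.68 to 5829.6 CPM and a median of 1256, and old SEC cells ran from 0 to 3704 with a median of 127. *Adamts4* was highest in AEC, at 416 and 269 CPM in young and old cells, then in old OPr and SEC, and lowest in old MSC-L at 0.769 CPM. *Adamts9*, another endothelial guide gene, stood at 143 and 209.7 CPM in young and old MSC-L, 3.76 and 8.37 in MSC-S, 64.5 and 142 in OPr, 23.6 and 83.1 in mOPr, 435 and 421 in AEC and 176 and 164 in SEC, high in AEC and low in MSC-S. *Adamts15*, *Adamts8* and *Adamts20* stayed at or below 21.9, 9.55 and 20.3 CPM.

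*Adamts2*, which removes the amino-terminal propeptide of fibrillar procollagens and is an endothelial guide gene, stood at 991 and 632 CPM in young and old MSC-L, 255 and 259.7 in MSC-S, 156 and 444 in OPr, 245 and 486 in mOPr, 16.8 and 25.3 in AEC and 163 and 72.9 in SEC. MSC-L were highest, with young cells from 0 to 2548 CPM and a median of 855, and AEC lowest. *Adamts14*, with the same substrate type, reached 139.7 CPM in old MSC-L and 117 in old mOPr, and *Adamts3*, which also takes part in VEGF-C processing, 49.1 CPM in young OPr. Among the other ADAMTS, *Adamts10*, a microfibril-associated protease, ran from 17.02 CPM in old MSC-S to 158 in old MSC-L. *Adamts7* reached 81.5 CPM in old SEC, *Adamts12* 44.1 and *Adamts6* 48.1 in young mOPr, *Adamts18* 33.9 in young mOPr, *Adamts17* 26.6 in young OPr and *Adamts16* 18.1 in young MSC-S. Young mesenchymal groups of the endosteum thus held the highest level of 5 of these 6. *Adamts19* reached 9.60 CPM, and *Adamts13*, which cleaves von Willebrand factor, 1.16 CPM at most. Of the ADAMTS-like genes, *Adamtsl3* ran to 156 CPM in old MSC-L, *Adamtsl4* to 117 and *Adamtsl5* to 122 in old MSC-S, *Adamtsl1*, an endothelial guide gene, to 60.6 in old mOPr and *Adamtsl2* to 10.3 in young OPr.

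*Timp1* stood at 57.8 and 69.4 CPM in young and old MSC-L, 396 and 281 in MSC-S, 358 and 52.1 in OPr, 113 and 78.6 in mOPr, 4.85 and 1.84 in AEC and 9.44 and 9.75 in SEC. It was high in MSC-S and young OPr, and in young MSC-S single cells ran from 0 to 10303 CPM with a median of 97. *Timp2*, which blocks MMPs and also takes part in MMP2 activation, is a guide gene of the mesenchymal clusters and stood at 359 and 343 CPM in young and old MSC-L, 2187 and 2317 in MSC-S, 545 and 527 in OPr, 1444 and 668 in mOPr, 335 and 439 in AEC and 138 and 196 in SEC. MSC-S were highest, with young cells from 15.8 to 5856 CPM and a median of 1805, and every group had at least 138 CPM. *Timp3*, a matrix-bound inhibitor that also blocks aggrecan-cleaving ADAMTS, stood at 209.8 and 49.9 CPM in young and old MSC-L, 394 and 209 in MSC-S, 577 and 214 in OPr, 609 and 423 in mOPr, 1086 and 1511 in AEC and 1153 and 1323 in SEC. Endothelial groups were the high ones, with young AEC cells from 2.75 to 10687 CPM around a median of 795 and old AEC cells from 9.77 to 7929 around 1187. *Timp4* stood at 87.6 and 29.03 CPM in young and old MSC-L, 0.0868 and 0.0510 in MSC-S, 8.39 and 83.8 in OPr, 0 and 23.5 in mOPr, 88.7 and 169 in AEC and 13.1 and 16.5 in SEC, so AEC, young MSC-L and old OPr were high and MSC-S near 0. No count in young mOPr allows up to 0.253 CPM.

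**Figure D2:**
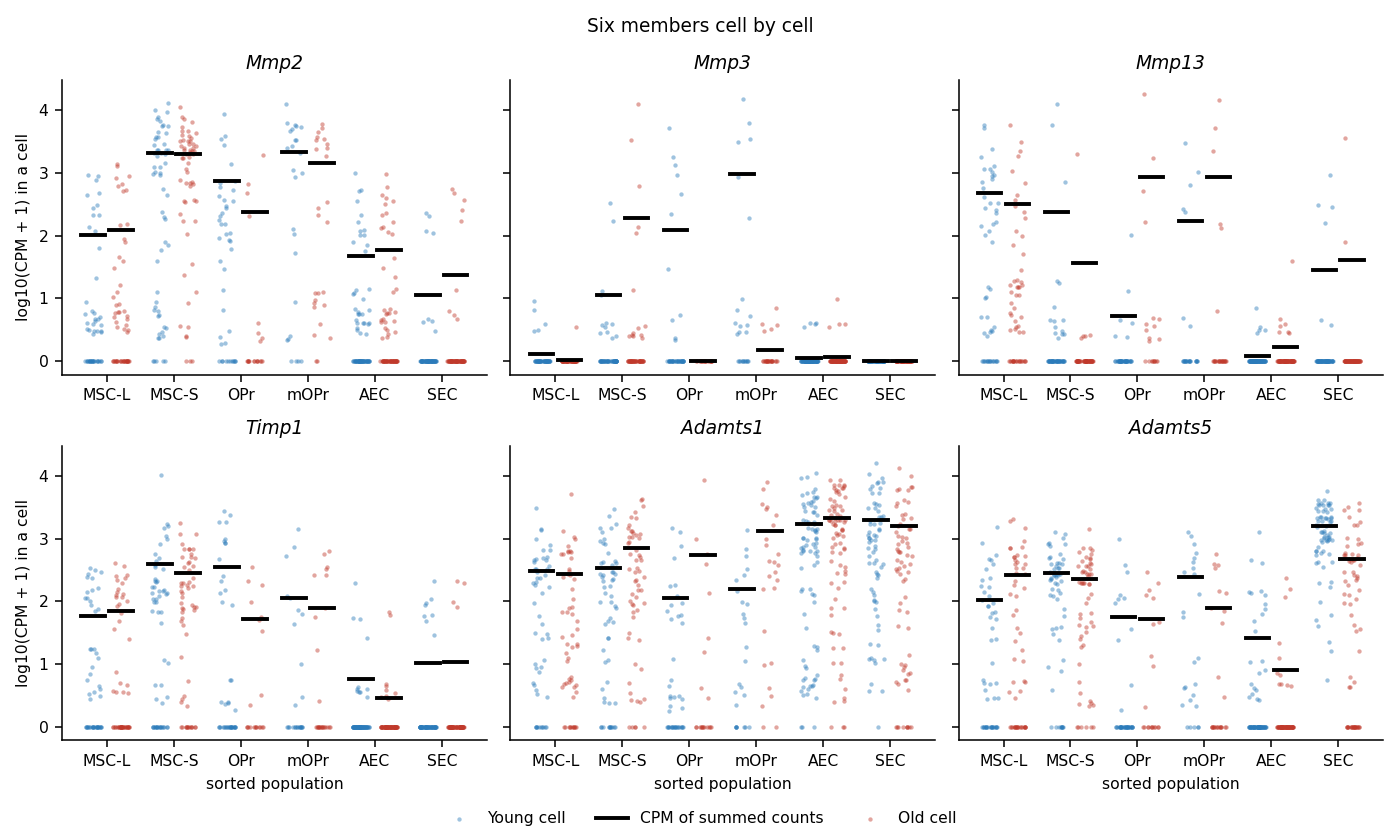
Levels of *Mmp2*, *Mmp3*, *Mmp13*, *Timp1*, *Adamts1* and *Adamts5* in each kept cell, as log10(CPM + 1), by population, with young cells in blue, old cells in red and the CPM of the summed counts as a black line. *Mmp13* and *Mmp3* lie at 0 in most cells and high in a few, whereas *Adamts1* is spread over most endothelial cells.

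Young MSC-S of the endosteum and young MSC-L of the marrow differed past 2-fold in 22 of the 32 members that passed the filter. MSC-S had more of the gelatinase *Mmp2* and the inhibitors *Timp1* and *Timp2*, and MSC-L more of the procollagen proteases *Adamts2* and *Adamts14* and the inhibitor *Timp4*. In MSC-S against MSC-L, *Mmp2* at 2061 against 101 CPM, *Timp2* at 2187 against 359, *Timp1* at 396 against 57.8, *Adamts5* at 281 against 104, *Adamtsl4* at 112 against 14.1 and *Adamtsl5* at 81.8 against 23.5 were higher. Their log2 ratios were 4.34, 2.60, 2.76, 1.43, 2.90 and 1.76, with 95% intervals of 4.27 to 4.41 for *Mmp2* and 2.56 to 2.64 for *Timp2*. Further held members on the MSC-S side were *Adamtsl1* at 52.9 against 19.6 CPM, *Adamts4* at 38.3 against 10.7, *Adamts6* at 32.1 against 5.31, *Mmp16* at 11.9 against 0.614 and *Mmp3* at 10.5 against 0.307, with log2 ratios of 1.38, 1.75, 2.39, 3.00 and 3.13, and *Adamts16* at 18.1 against 0.0438 CPM, a single count in MSC-L (4.19, 95% interval 3.83 to 4.36). On the MSC-L side stood *Adamts2* at 255 against 991 CPM, *Mmp23* at 52.7 against 248, *Mmp13* at 233 against 478 and *Adamts9* at 3.76 against 143, with log2 ratios of -1.95, -2.22, -1.03 and -4.92. *Mmp13* was short of 2-fold with the mean of CPM, size factors and thinning, at -0.62, -0.25 and -0.59. The other held members there were *Adamts10* at 28.7 against 137 CPM, *Adamts14* at 17.05 against 103 and *Mmp11* at 5.50 against 72.6, at -2.21, -2.53 and -3.50. MSC-S had 3 counts each of *Timp4*, at 0.0868 against 87.6 CPM (-6.35, 95% interval -6.51 to -6.08), and of *Mmp17*, at 0.0868 against 24.2 CPM (-4.54, 95% interval -4.75 to -4.21). Of 32 members that passed the filter, 22 (68.8%) were past 2-fold, where 45.5% of all 13645 passing genes were. There were 12 higher in MSC-S (16.8% of all genes) and 10 lower (28.8% of all genes), and 21 members held (38.2% of all genes). The median log2 ratio was 0.24 over the members and -0.32 over all passing genes. With size factors the split was 14 higher and 9 lower. By role these were 1 lower of 1 collagenases, 1 higher of 1 gelatinases, 1 higher and 1 lower of 2 stromelysins and matrilysin, 1 higher and 1 lower of 3 membrane-anchored MMPs, 1 lower of 3 remaining MMPs, 2 higher and 2 lower of 5 proteoglycan-cleaving ADAMTS, 2 lower of 3 procollagen-cleaving ADAMTS, 2 higher and 1 lower of 6 other ADAMTS, 3 higher of 4 ADAMTS-like and 2 higher and 1 lower of 4 TIMPs. *Adamts15*, past 2-fold at 3.50 against 17.4 CPM, did not hold. Without the highest cell of each group the log2 ratio moved to -2.93 for *Mmp17*, 2.56 for *Adamts16*, 1.94 for *Mmp3*, 1.86 for *Timp1*, 4.40 for *Adamts6*, 3.98 for *Adamtsl1* and -2.68 for *Mmp13*. In ranges 1 and 2 it was 4.15 and 4.48 for *Mmp2*, 2.85 and 2.45 for *Timp2*, 0.98 and 3.04 for *Timp1*, -8.97 and -0.14 for *Mmp13*, -1.37 and -2.31 for *Adamts2* and -6.09 and -6.47 for *Timp4*, so the *Mmp13* difference lay in range 1, *Timp1* was just short of 2-fold there and the other 4 were past it in both, with 20 and 19 of 21 held members past 2-fold in each range. Cells of the cluster identity alone kept 21 of 21 past 2-fold in their direction. Of the MSC-L markers 5 of 5 were lower in MSC-S, and the 5 chondrocyte markers summed to 59.5 CPM in young MSC-L, with *Col2a1* the most abundant, and 3338 CPM in young MSC-S, with *Chad* the most abundant and *Matn3* at 0. Their part in the differences was not tested.

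Young OPr had less of 12 members than young MSC-S of the same tissue and more of 8, with *Mmp2* and *Timp2* on the lower side. Lower in OPr stood *Mmp2* at 746 against 2061 CPM, *Timp2* at 545 against 2187, *Adamts1* at 110.1 against 338, *Adamts5* at 56.01 against 281 and *Adamtsl4* at 34.02 against 112. The log2 ratios of these 5 were -1.47, -2.00, -1.61, -2.31 and -1.69, with 95% intervals of -1.49 to -1.44 for *Mmp2* and -2.03 to -1.97 for *Timp2*. Less abundant members on the same side were *Adamts16* at 0.136 against 18.1 CPM, *Adamts7* at 2.08 against 34.3, *Adamtsl5* at 12.2 against 81.8, *Adamts6* at 5.39 against 32.1, *Adamts15* at 0.239 against 3.50 and *Adamtsl1* at 20.2 against 52.9, with log2 ratios of -4.07, -3.52, -2.65, -2.37, -1.86 and -1.34. *Adamts15* was short of 2-fold with size factors and thinning, at -0.54 and -0.84. Higher in OPr were *Adamts9* at 64.5 against 3.76 CPM, *Adamts18* at 27.4 against 1.74, *Adamts17* at 26.6 against 5.06 and *Mmp16* at 37.2 against 11.9, at 3.78, 3.38, 2.19 and 1.56. Of 32 members that passed the filter, 20 (62.5%) were past 2-fold, where 36.3% of all 13756 passing genes were. There were 8 higher in OPr (19.3% of all genes) and 12 lower (17% of all genes), and 15 members held (26.2% of all genes). Over the members the median log2 ratio was -0.67, and over all passing genes 0.00. The split was 8 higher and 15 lower with size factors, and 8 and 18 with the mean of CPM over cells and 6 and 17 without the highest cells. In range 1, 16 of 28 members were past 2-fold (all genes 46.4%), 8 higher and 8 lower. In range 2 it was 22 of 28 (all genes 40.2%), 7 higher and 15 lower. The mean of CPM moved the median of all genes by -0.12. Grouped by role, there were 1 lower of 1 collagenases, 1 lower of 1 gelatinases, 1 higher of 2 stromelysins and matrilysin, 1 higher of 2 membrane-anchored MMPs, 2 higher and 3 lower of 6 proteoglycan-cleaving ADAMTS, 1 higher of 3 procollagen-cleaving ADAMTS, 3 higher and 3 lower of 7 other ADAMTS, 3 lower of 4 ADAMTS-like and 1 lower of 3 TIMPs. Past 2-fold without holding were *Mmp13* at 4.30 against 233 CPM, *Adamts20* at 20.3 against 0.116, *Mmp3* at 123 against 10.5, *Adamts3* at 49.1 against 12.4 and *Adamts10* at 86.3 against 28.7. When each group lost its highest cell, the log2 ratio became -2.56 for *Adamts16*, -5.80 for *Adamtsl5*, -3.19 for *Adamts5*, 2.95 for *Adamts17*, -2.16 for *Mmp2* and -5.05 for *Adamtsl1*. By range the 2 ratios were -0.81 and -2.55 for *Mmp2*, -1.85 and -2.24 for *Timp2*, -2.83 and -0.87 for *Adamts1*, -1.66 and -3.56 for *Adamts5*, 3.87 and 3.59 for *Adamts9* and 5.85 and 0.63 for *Adamts18*, and 13 and 12 of 15 were past 2-fold in ranges 1 and 2. The identity clusters alone gave 15 of 15 past 2-fold in the same direction. Chondrocyte markers were higher in OPr, 5 of 5, with a sum of 39027 CPM led by *Col2a1* against 3338 CPM in MSC-S led by *Chad*. MSC-L markers were also higher, 5 of 5, at 5406 against 519 CPM, as were 5 of 6 osteoblast markers, and the part of these lists was not tested.

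AEC and SEC of young mice shared library-number range 3, in which 24 AEC and 70 SEC cells were compared. SEC had more of the aggrecan-cleaving *Adamts5*, and AEC more *Timp4*, *Mmp15* and *Adamtsl1*. In AEC against SEC, *Adamts5* at 85.5 against 1583 CPM, *Adamts2* at 5.26 against 163, *Mmp14* at 90.7 against 245, *Adamts17* at 0.618 against 14.96, *Mmp23* at 7.88 against 22.1 and *Adamts14* at 2.78 against 10.7 were lower in AEC, with log2 ratios of -4.19, -4.72, -1.42, -3.30, -1.38 and -1.63. *Adamtsl3*, with 1 count in AEC, stood at 0.155 against 7.02 CPM (-2.80, 95% interval -3.20 to -1.90). Without a count in these AEC cells, *Mmp13* was 58.9-fold, *Timp1* 20.4-fold and *Mmp19* 16.8-fold lower than the 27.3, 9.44 and 7.80 CPM of SEC, taking 3 counts over the group as the floor. The 95% upper limit for no count, 0.570 CPM, lies above that floor, so these folds are no minimum. The AEC side held *Timp4* at 232 against 13.1 CPM, *Adamtsl1* at 112 against 0.365, *Mmp15* at 81.2 against 27.5, *Adamtsl4* at 65.5 against 7.43, *Mmp28* at 49.5 against 8.30 and *Mmp17* at 20.2 against 1.60, with log2 ratios of 4.05, 6.37, 1.53, 2.98, 2.44 and 3.03. Of 27 members that passed the filter, 18 (66.7%) were past 2-fold, where 42.2% of all 11908 passing genes were. There were 8 higher in AEC (17.3% of all genes) and 10 lower (24.9% of all genes), and 16 members held (35.7% of all genes). Members had a median log2 ratio of -0.54, all passing genes one of -0.10. The roles involved were 1 lower of 1 collagenases, 1 higher of 1 gelatinases, 1 higher of 1 stromelysins and matrilysin, 2 higher and 1 lower of 3 membrane-anchored MMPs, 1 higher and 2 lower of 3 remaining MMPs, 1 lower of 4 proteoglycan-cleaving ADAMTS, 2 lower of 2 procollagen-cleaving ADAMTS, 1 lower of 4 other ADAMTS, 2 higher and 1 lower of 4 ADAMTS-like and 1 higher and 1 lower of 4 TIMPs, and *Mmp2* at 46.8 against 10.1 CPM and *Mmp11* at 15.5 against 4.88 CPM did not hold. Without the highest cells 6 and 16 members were higher and lower in AEC, with the median of all genes at -0.56 and 50.2% of them past 2-fold, and the log2 ratio moved to 5.18 for *Adamtsl1*, -5.03 for *Adamts5*, -2.68 for *Adamts17*, 1.92 for *Mmp17*, 1.60 for *Mmp28* and -3.78 for *Mmp23*. Cluster E1, called mesenchymal and endothelial doublets by the authors, held 9 of these SEC cells, and E2 was called pericytes. *Adamts2* stood at 907 CPM in E1, 37.6 in E4 and 26.1 in E7, and without E1 and E2 its log2 ratio was -2.97. With E1 and E2 left out 13 of 16 held members were past 2-fold in their direction by ratio size alone. With the filter, 11 of 20 members were past 2-fold (all genes 43.1%), 10 of them among the 18 reported. *Adamts14* and *Mmp23* turned without E1 and E2, to 0.40 and 0.81. In 7 AEC-like against 59 SEC-like cells alone *Adamts14*, *Mmp23*, *Adamtsl4* and *Mmp17* stood at 0.98, 2.36, -0.45 and -0.69. The median of all genes was -0.50 there, near the last 2. *Mmp13* in SEC came from 6 cells and its ratio in AEC-like against SEC-like cells was -0.08, which places its counts outside cluster E7, whereas *Adamts5*, at 0 against 1825 CPM there, and *Timp4*, at 5.22, kept their sides. Of the pericyte and smooth muscle markers 4 of 5 were higher in AEC, and of the MSC-L markers 4 of 5 lower, and their part was not tested.

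With age, marrow MSC-L had more *Adamts5* and less *Timp4* and less of 5 proteases of low level. *Adamts5* went from 104 to 262 CPM, a log2 ratio of 1.32 (95% interval 1.23 to 1.42), and *Adamtsl3* from 75.8 to 156 CPM, at 1.03 (95% interval 0.91 to 1.15). *Adamtsl3* was short of 2-fold with the mean of CPM, size factors and thinning, at 0.80, 0.84 and 0.69. The inhibitor *Timp4* went from 87.6 to 29.03 CPM (-1.56, 95% interval -1.74 to -1.38), with a count in 17 young and 11 old cells. Lower as well went *Adamts4* from 10.7 to 0.769 CPM, *Adamts17* from 10.1 to 0.821, *Adamts3* from 6.36 to 0.513, *Mmp28* from 20.9 to 3.90 and *Adamts7* from 32.9 to 14.7, at -2.73, -2.61, -2.28, -2.16 and -1.11. Of 31 members that passed the filter, 12 (38.7%) were past 2-fold, where 25.4% of all 13143 passing genes were. There were 3 higher in old cells (13.9% of all genes) and 9 lower (11.5% of all genes), and 8 members held (16.8% of all genes). The median log2 ratio was -0.40 over the members and 0.01 over all passing genes. With size factors the split was 2 higher and 9 lower, without the highest cells 6 and 6, and in ranges 1 and 2 4 and 2 and then 4 and 11. These were 1 lower of 2 gelatinases, 1 lower of 3 remaining MMPs, 1 higher and 1 lower of 5 proteoglycan-cleaving ADAMTS, 1 lower of 3 procollagen-cleaving ADAMTS, 2 lower of 5 other ADAMTS, 2 higher and 1 lower of 4 ADAMTS-like and 2 lower of 4 TIMPs. The most abundant members of MSC-L were not past 2-fold: *Mmp13* had a log2 ratio of -0.59, *Mmp23* of -0.40, *Timp2* of -0.06 and *Adamts2* of -0.65. *Timp3*, from 209.8 to 49.9 CPM, and *Mmp9*, from 24.1 to 0.513 CPM, did not hold, since 1 young cell carried 85.1% and 99.8% of their counts, and neither did *Adamtsl4* from 14.1 to 33.7 and *Adamtsl1* from 19.6 to 9.13 CPM. Ranges 1 and 2 gave 0.60 and 1.76 for *Adamts5*, 0.17 and 1.76 for *Adamtsl3*, -0.13 and -3.34 for *Timp4*, -2.67 and -2.75 for *Adamts4*, -0.58 and -3.68 for *Adamts17* and -2.21 and -2.10 for *Mmp28*. By ratio size alone, all 8 held members were past 2-fold in range 2 and 4 in range 1. With the filter, 1 and 11 of the 12 reported members were past 2-fold in ranges 1 and 2. Leaving out the highest cells moved the log2 ratio to -1.68 for *Adamts17* and -2.44 for *Adamts7*. The 15 hematopoietic markers summed to 40.6 CPM in young and 331 CPM in old MSC-L, with *Coro1a* (young) and *Plek* (old) the most abundant, 5 higher and 0 lower past 2-fold of 7 that passed, and *Cd52*, *S100a8* and *Tyrobp* at 0 in the young cells. The 6 osteoblast markers summed to 8833 CPM in young and 3602 CPM in old MSC-L, with *Ibsp* the most abundant, 0 higher and 1 lower past 2-fold of 6 that passed, and none at 0. Pericyte and smooth muscle markers went from 69.1 to 29.2 CPM, with 0 higher and 2 lower past 2-fold of 4 that passed. The median cell also had fewer counts in old MSC-L, and the part of markers and depth in the differences was not tested. Thinned to 100000 counts per cell, 6 of 25 members that passed were past 2-fold (all genes 22.1%). In range 1 alone it was 6 of 23 (all genes 35.1%), and in range 2 alone 15 of 29 (all genes 33.3%).

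Old MSC-S had less *Mmp13* and more *Mmp3* than young MSC-S, both in few cells, and more *Adamts1* at the edge of 2-fold. *Adamts1* went from 338 to 708 CPM, a log2 ratio of 1.06 (95% interval 1.02 to 1.11), with a count in 48 of 59 young and 54 of 59 old cells, and was short of 2-fold with the mean of CPM, size factors and thinning, at 0.90, 0.96 and 0.86. *Mmp13* went from 233 to 36.1 CPM (-2.66, 95% interval -2.77 to -2.56) and *Mmp3* from 10.5 to 192 CPM (4.07, 95% interval 3.91 to 4.25), with a count in 12 young and 14 old cells. Without the highest cell of each age these 2 stood at -5.74 and 3.02. Smaller shifts were *Adamts15* from 3.50 to 14.7 CPM, *Adamts3* from 12.4 to 3.45 and *Adamts12* from 35.4 to 14.4, at 1.80, -1.60 and -1.24. Of 31 members that passed the filter, 10 (32.3%) were past 2-fold, where 19.7% of all 13381 passing genes were. There were 5 higher in old cells (8.65% of all genes) and 5 lower (11.1% of all genes), and 6 members held (11.9% of all genes). Over the members the median log2 ratio was -0.02, and over all passing genes -0.06. With size factors it was 4 and 7. Role by role, the members past 2-fold were 1 lower of 1 collagenases, 2 higher of 2 stromelysins and matrilysin, 2 higher of 5 proteoglycan-cleaving ADAMTS, 1 lower of 3 procollagen-cleaving ADAMTS and 1 higher and 3 lower of 7 other ADAMTS, and *Adamts19* from 0.492 to 7.78 CPM, *Adamts17* from 5.06 to 0.0766, *Adamts16* from 18.1 to 3.73 and *Mmp11* from 5.50 to 17.5 did not hold. *Mmp2* and *Timp2*, the most abundant members of MSC-S, had log2 ratios of -0.02 (95% interval -0.04 to 0.00) and 0.08 (95% interval 0.06 to 0.10), close to no difference, and *Timp1* of -0.49. Within ranges 1 and 2 the ratios were 0.44 and 1.46 for *Adamts1*, -0.18 and -2.88 for *Mmp13*, 4.82 and 3.07 for *Mmp3*, 1.24 and 2.35 for *Adamts15*, -1.61 and -0.28 for *Adamts3* and -1.82 and -0.93 for *Adamts12*, and 4 and 4 of 6 were past 2-fold, with the *Mmp13* difference in range 2. MSC-S-like cells alone kept all 6 past 2-fold. These include the 10 cells of M9, all old MSC-S, with *Adamts1* at 299 CPM per kb, whose part in its difference was not tested. The 5 chondrocyte markers summed to 3338 CPM in young and 247 CPM in old MSC-S, with *Chad* the most abundant, 0 higher and 4 lower past 2-fold of 4 that passed, and *Matn3* at 0 in the young cells. The 6 osteoblast markers summed to 2547 CPM in young and 1335 CPM in old MSC-S, with *Col1a1* the most abundant, 0 higher and 2 lower past 2-fold of 5 that passed, and none at 0. The part of these lists in the *Mmp13* difference was not tested. Thinning to 100000 counts left 5 of 26 members that passed past 2-fold (all genes 14.4%).

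Old OPr showed held differences in 21 members, in both directions. The inhibitors *Timp1* and *Timp3* and the gelatinase *Mmp2* were lower in old cells, *Mmp3* was no longer counted, and *Mmp13* and *Adamts2* were higher. *Timp1* went from 358 to 52.1 CPM (-2.76, 95% interval -2.88 to -2.63), *Timp3* from 577 to 214 CPM (-1.43, 95% interval -1.50 to -1.36) and *Mmp2* from 746 to 236 CPM (-1.66, 95% interval -1.72 to -1.59). *Mmp3* at 123 CPM and *Mmp28* at 20.8 CPM in young cells had no count in old ones and were 658-fold and 111-fold lower against 3 counts over the old group. The 95% upper limit for no count lies above that floor, so these folds are no minimum. *Adamts17*, with 1 count in old cells, went from 26.6 to 0.0624 CPM (-4.70, 95% interval -4.88 to -4.26). Lower members of smaller level were *Adamts3* from 49.1 to 5.62 CPM, *Adamts6* from 5.39 to 0.312, *Adamts18* from 27.4 to 5.55, *Mmp16* from 37.2 to 8.74 and *Adamtsl4* from 34.02 to 9.99, at -2.92, -2.28, -2.12, -1.97 and -1.67. On the side of old cells, *Mmp13* went from 4.30 to 851 CPM (7.33, 95% interval 7.10 to 7.56), with a count in 6 of 44 young and 12 of 21 old cells, and was at 6.50 without the highest cells. *Adamts2* went from 156 to 444 CPM (1.50, 95% interval 1.43 to 1.58) and *Adamts4* from 19.6 to 198 CPM (3.27), the latter in 4 old cells. Further rises past 2-fold that held were *Mmp23* from 41.3 to 179 CPM, *Timp4* from 8.39 to 83.8, *Mmp11* from 3.17 to 33.8 and *Adamts9* from 64.5 to 142, at 2.09, 3.17, 3.06 and 1.12, and *Adamts14* from 24.99 to 64.2 CPM, *Adamtsl5* from 12.2 to 45.1 and *Adamts7* from 2.08 to 7.61, at 1.33, 1.81 and 1.48. Of 31 members that passed the filter, 23 (74.2%) were past 2-fold, where 44.8% of all 12980 passing genes were. There were 12 higher in old cells (26.4% of all genes) and 11 lower (18.4% of all genes), and 21 members held (29.6% of all genes). Members had a median log2 ratio of 0.26, all passing genes one of 0.22. By role there were 1 higher of 1 collagenases, 1 lower of 1 gelatinases, 1 higher and 1 lower of 2 stromelysins and matrilysin, 1 higher and 1 lower of 3 membrane-anchored MMPs, 1 higher and 1 lower of 3 remaining MMPs, 3 higher of 4 proteoglycan-cleaving ADAMTS, 2 higher and 1 lower of 3 procollagen-cleaving ADAMTS, 1 higher and 3 lower of 6 other ADAMTS, 1 higher and 1 lower of 4 ADAMTS-like and 1 higher and 2 lower of 4 TIMPs. *Adamts1*, from 110.1 to 545 CPM, and *Mmp17*, from 2.80 to 12.2 CPM, did not hold. *Adamts9* and *Adamtsl4* were short of 2-fold with the mean of CPM, size factors and thinning, at 0.71, 0.21 and 0.79 and at -0.89, -0.14 and -0.87, and with *Il1b* cells kept so were *Adamts9* and *Adamts14*, at 0.71 and 0.92.

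Several of these OPr differences moved with cell identity. The 5 MSC-L markers summed to 5406 CPM in young and 29648 CPM in old OPr, with *Cxcl12* the most abundant, 4 higher and 0 lower past 2-fold of 5 that passed, and none at 0. The 5 chondrocyte markers summed to 39027 CPM in young and 6904 CPM in old OPr, with *Col2a1* (young) and *Chad* (old) the most abundant, 0 higher and 4 lower past 2-fold of 5 that passed, and none at 0. The 5 pericyte and smooth muscle markers summed to 42.6 CPM in young and 2679 CPM in old OPr, with *Tagln* (young) and *Acta2* (old) the most abundant, 4 higher and 0 lower past 2-fold of 5 that passed, and none at 0. The 5 MSC-S markers summed to 121 CPM in young and 321 CPM in old OPr, with *Pdgfra* the most abundant, 3 higher and 1 lower past 2-fold of 4 that passed, and *Pi16* at 0 in the old cells. Osteoblast markers went from 4135 to 2220 CPM, with 0 higher and 2 lower past 2-fold of 6 that passed. Among OPr-like cells alone, 36 young and 11 old, 14 of 21 held members were past 2-fold in the same direction by ratio size alone. With the filter, 16 of 26 members were past 2-fold there (all genes 51.2%), 5 higher and 11 lower, and 12 of them were among the 23 reported. *Mmp23*, *Adamts2*, *Adamts9* and *Adamtsl4* turned there, to -3.58 (0 counts in the old cells), -1.63, -0.20 and 0.13, while *Mmp13* stood at 6.83, *Timp1* at -2.93, *Mmp2* at -1.96, *Adamts4* at 6.60 and *Timp4* at 3.83. This setting also leaves out 5 young MSC-S-like cells, all in M15, where *Mmp3* and *Timp1* were high. *Mmp23*, *Adamts2* and *Adamts9*, each of them higher in young MSC-L than in young OPr, were higher in the whole sort alone. *Timp3* was at -0.74, *Adamts18* at -0.23 and *Adamtsl5* at 0.76 in these cells, no longer past 2-fold. Ranges 1 and 2, with 7 and 14 old cells, gave -1.90 and -3.27 for *Timp1*, -1.16 and -1.57 for *Timp3*, -1.28 and -2.70 for *Mmp2*, 4.71 and 9.81 for *Mmp13* and 0.70 and 3.88 for *Adamts2*. By ratio size alone, 15 and 20 of the 21 held members were past 2-fold. With the filter, 11 and 16 of the 23 reported members were past 2-fold in ranges 1 and 2. Single cells mattered for many: without the highest cell of each age the log2 ratio moved to 6.50 for *Mmp13*, -3.86 for *Adamts17*, 4.31 for *Timp4*, 4.18 for *Mmp11*, -4.44 for *Adamts3*, -3.08 for *Adamts18*, 3.04 for *Mmp23*, -3.55 for *Mmp16*, 3.90 for *Adamtsl5*, -2.82 for *Mmp2* and 2.60 for *Adamts14*. Leaving out these cells moved the median of all genes by -0.33, and size factors moved it by -0.15, so the ratios are to be read against shifts of that size. The part of identity, markers and single cells in these differences was not tested.

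Old mOPr had next to no *Mmp3* and more *Adamts1* than young mOPr, with 19 held members. *Mmp3* went from 973 to 0.481 CPM, 6 counts (-9.36, 95% interval -9.72 to -8.87), and *Adamts1* from 155 to 1304 CPM (3.06, 95% interval 2.98 to 3.15), with a count in 19 young and 24 old cells of 26 each. Of the young cells 16 were MSC-S-like, 7 of them in M15 and 4 in M12, where *Mmp3* stood at 604 and 238 CPM per kb, and no old cell was. *Timp2* went from 1444 to 668 CPM (-1.11, 95% interval -1.16 to -1.06) and *Adamts5* from 245 to 78.5 CPM (-1.63, 95% interval -1.77 to -1.49). A group of other ADAMTS was lower, with *Adamts6* from 48.1 to 0.481 CPM, *Adamts7* from 51.01 to 3.76 and *Adamts17* from 9.80 to 0.400, at -5.05, -3.45 and -2.95. Old cells had 1 count each of *Adamts12*, from 44.1 to 0.0801 CPM (-5.38, 95% interval -5.60 to -4.85), and *Adamts18*, from 33.9 to 0.0801 CPM (-5.02, 95% interval -5.25 to -4.47). Also lower were *Mmp28* from 9.46 to 1.36 CPM and *Mmp16* from 21.6 to 6.73, at -2.15 and -1.55. *Mmp16* was short of 2-fold with the mean of CPM, size factors and thinning, at -0.92, -0.88 and -0.84, and *Timp2* with size factors, at -0.97. Higher in old cells were *Adamts14* from 14.3 to 117 CPM, *Adamts10* from 39.4 to 120.1, *Adamts9* from 23.6 to 83.1, *Adamts4* from 18.2 to 68.9 and *Mmp23* from 13.4 to 67.9, at 2.95, 1.58, 1.77, 1.87 and 2.26, and *Mmp19* from 4.73 to 36.04 CPM, *Adamtsl1* from 11.7 to 60.6 and *Adamtsl5* from 0.686 to 17.5, at 2.69, 2.27 and 3.45. Of 29 members that passed the filter, 20 (68.97%) were past 2-fold, where 44.5% of all 11237 passing genes were. There were 10 higher in old cells (24.7% of all genes) and 10 lower (19.8% of all genes), and 19 members held (31% of all genes). The median log2 ratio was -0.19 over the members and 0.11 over all passing genes. The split was 11 and 9 with size factors, and by role there were 1 higher of 1 collagenases, 1 lower of 2 stromelysins and matrilysin, 1 lower of 2 membrane-anchored MMPs, 2 higher and 1 lower of 3 remaining MMPs, 3 higher and 1 lower of 4 proteoglycan-cleaving ADAMTS, 1 higher of 3 procollagen-cleaving ADAMTS, 1 higher and 5 lower of 6 other ADAMTS, 2 higher of 4 ADAMTS-like and 1 lower of 3 TIMPs. *Mmp13* went from 169 to 868 CPM (2.35, 95% interval 2.27 to 2.44) and did not hold, since ranges 1 and 2 gave -3.72 and 4.00. *Mmp2* was not past 2-fold, with a log2 ratio of -0.60 (95% interval -0.63 to -0.56). Within ranges 1 and 2 the ratios stood at -9.73 and -6.84 for *Mmp3*, 1.82 and 3.97 for *Adamts1*, -0.72 and -1.42 for *Timp2*, -1.09 and -1.98 for *Adamts5*, 2.18 and 3.17 for *Adamts14* and 0.79 and 6.18 for *Adamtsl1*. By ratio size alone, 17 and 19 of the 19 held members were past 2-fold. With the filter, 17 of 23 members were past 2-fold in range 1 (all genes 49.6%) and 15 of 19 in range 2 (53.7%). In each range 12 of them were among the 20 reported. The highest cells, left out, moved the log2 ratio to -8.57 for *Mmp3*, -3.03 for *Adamts18*, 2.31 for *Adamtsl5*, -1.95 for *Adamts17*, 5.03 for *Adamtsl1* and -3.44 for *Mmp16*.

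Identity differed with age in mOPr as well, but OPr-like cells went from 8 to 12 of 26, where in OPr they went from 36 of 44 to 11 of 21. The 5 MSC-L markers summed to 962 CPM in young and 20874 CPM in old mOPr, with *Cxcl12* the most abundant, 4 higher and 0 lower past 2-fold of 5 that passed, and none at 0. The 5 chondrocyte markers summed to 4354 CPM in young and 229.8 CPM in old mOPr, with *Chad* the most abundant, 0 higher and 4 lower past 2-fold of 4 that passed, and none at 0. The 5 pericyte and smooth muscle markers summed to 105 CPM in young and 1961 CPM in old mOPr, with *Acta2* the most abundant, 4 higher and 0 lower past 2-fold of 4 that passed, and *Rgs5* at 0 in the young cells. The 5 MSC-S markers summed to 647 CPM in young and 1432 CPM in old mOPr, with *Pdgfra* the most abundant, 3 higher and 1 lower past 2-fold of 5 that passed, and none at 0. With OPr-like cells alone, 8 young and 12 old ones, the ratio of *Mmp3* was -6.65, of *Adamts1* 4.73 and of *Adamts14* 3.24. By ratio size alone, 14 of 19 held members were past 2-fold in the same direction. With the filter, 11 of 18 members were past 2-fold there (all genes 55.4%), 7 of them among the 20 reported. *Mmp23*, *Adamts10* and *Adamts9* turned, to -1.72, -0.97 and -0.32, and *Timp2* and *Adamts18* fell short of 2-fold at -0.33 and -0.29. Of these members, *Mmp23* and *Adamts9* were also higher in the whole sort and lower in OPr-like cells of old OPr. The part of identity and of the marker lists was not tested.

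AEC differed little with age in their main members, and 5 members of low level held. The abundant *Adamts1*, *Timp3* and *Timp2* had log2 ratios of 0.31 (95% interval 0.28 to 0.33), 0.48 (95% interval 0.45 to 0.50) and 0.39 (95% interval 0.34 to 0.44), and *Adamts4* and *Adamts9* of -0.63 and -0.04. Lower in old AEC were *Adamts7* from 37.2 to 8.17 CPM, *Adamts5* from 25.2 to 7.00, *Adamtsl1* from 36.4 to 10.7 and *Adamtsl2* from 7.32 to 0.573, at -2.06, -1.71, -1.68 and -2.40, and *Adamts6* was higher, from 11.8 to 34.5 CPM (1.48, 95% interval 1.27 to 1.69). These 5 were counted in 19 and 6, 23 and 11, 12 and 7, 13 and 2, and 13 and 14 young and old cells of 84 and 82. Of 32 members that passed the filter, 17 (53.1%) were past 2-fold, where 21.1% of all 14042 passing genes were. There were 5 higher in old cells (9.33% of all genes) and 12 lower (11.7% of all genes), and 5 members held (8.62% of all genes). Over the members the median log2 ratio was -0.19, and over all passing genes -0.03. The split was 6 and 10 with size factors and 7 and 10 with the mean of CPM over cells, and 7 and 5 in AEC-like cells alone. In roles, there were 2 lower of 4 membrane-anchored MMPs, 2 lower of 3 remaining MMPs, 1 higher and 1 lower of 6 proteoglycan-cleaving ADAMTS, 1 lower of 2 procollagen-cleaving ADAMTS, 2 higher and 3 lower of 6 other ADAMTS, 2 higher and 2 lower of 5 ADAMTS-like and 1 lower of 4 TIMPs. Past 2-fold without holding were *Mmp17* from 17.8 to 4.73 CPM, *Mmp19* from 3.16 to 0.401, *Mmp28* from 31.4 to 11.3, *Adamts12* from 6.31 to 1.78, *Adamts14* from 3.44 to 0.717, *Adamts18* from 3.82 to 1.06, *Mmp14* from 81.4 to 35.6 and *Timp1* from 4.85 to 1.84 on the lower side, and *Adamts17* from 0.230 to 3.10 CPM, *Adamtsl3* from 1.78 to 7.60, *Adamts15* from 3.30 to 10.5 and *Adamtsl5* from 13.9 to 35.1 on the higher. With fewer counts or cells, fewer members passed the filter and fewer were past 2-fold. Thinned to 100000 counts, 10 of 22 members that passed were past 2-fold (all genes 16.99%). It was 9 of 18 in range 1 (all genes 39.7%), 10 of 23 in range 2 (all genes 29.4%) and 7 of 17 in range 3 (all genes 36.8%). Over the 3 ranges the ratios were -3.34, -3.31 and -0.36 for *Adamts7*, -0.67, -0.87 and -2.87 for *Adamts5*, -5.09, -0.26 and -1.90 for *Adamtsl1*, -0.89, -3.32 and -2.57 for *Adamtsl2* and 2.16, 1.13 and 1.14 for *Adamts6*. In AEC-like cells alone 4 of 5 were past 2-fold in the same direction and *Adamts5* turned, to 0.12. The 5 sinusoidal markers summed to 1977 CPM in young and 1188 CPM in old AEC, with *Il6st* the most abundant, 0 higher and 3 lower past 2-fold of 5 that passed, and none at 0. Of osteoblast markers that passed, 3 of 5 were higher and 1 lower past 2-fold, and of MSC-S markers 2 of 5 were higher. MSC-L markers were lower in 2 of 5 and chondrocyte markers in 2 of 4. AEC-like cells were 50 of 84 young and 61 of 82 old cells, and cluster E6 held 8 and 2. The part of these markers in the *Adamts5* difference was not tested.

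Old SEC had less *Adamts5* and more *Mmp15*. *Adamts5* went from 1583 to 471 CPM (-1.75, 95% interval -1.79 to -1.70), with a count in 70 of 70 young and 48 of 71 old cells. *Adamts2* went from 163 to 72.9 CPM (-1.16, 95% interval -1.27 to -1.04) and *Mmp15* from 27.5 to 83.4 CPM (1.57, 95% interval 1.39 to 1.75), the latter with a count in 26 young and 32 old cells. *Adamts2* fell short of 2-fold with the mean of CPM, size factors and thinning, at -0.81, -0.84 and -0.77, as did *Mmp19* with size factors, at -0.98. Of the less abundant members, *Adamtsl2* from 8.44 to 0.241 CPM, *Adamts12* from 31.8 to 13.8 and *Mmp19* from 7.80 to 3.33 were lower, at -2.93, -1.14 and -1.02, and *Mmp2* from 10.1 to 22.2 CPM and *Adamts6* from 1.37 to 7.58 higher, at 1.06 and 1.86. Of 28 members that passed the filter, 9 (32.1%) were past 2-fold, where 20.7% of all 12982 passing genes were. There were 4 higher in old cells (13.1% of all genes) and 5 lower (7.56% of all genes), and 8 members held (16.3% of all genes). Members had a median log2 ratio of 0.00, all passing genes one of 0.05. Size factors gave 5 and 4, and the roles were 1 higher of 1 gelatinases, 1 higher of 3 membrane-anchored MMPs, 1 lower of 3 remaining MMPs, 1 lower of 4 proteoglycan-cleaving ADAMTS, 1 lower of 2 procollagen-cleaving ADAMTS, 1 higher and 1 lower of 5 other ADAMTS and 1 higher and 1 lower of 4 ADAMTS-like, with *Adamtsl5*, from 3.33 to 9.36 CPM, not holding. *Adamts1* and *Timp3*, the highest members of SEC, had log2 ratios of -0.32 (95% interval -0.35 to -0.29) and 0.20 (95% interval 0.16 to 0.23). Without the highest cells the log2 ratio moved to -1.97 for *Adamtsl2* and 1.01 for *Adamts6*. All SEC cells lay in range 3, so no second range gives a value. MSC-L markers went from 6625 to 4109.6 CPM, 3 of 5 lower, and pericyte and smooth muscle markers from 194 to 554 CPM, 3 of 5 higher. The 5 arteriolar markers summed to 248 CPM in young and 1161 CPM in old SEC, with *Ly6a* the most abundant, 5 higher and 0 lower past 2-fold of 5 that passed, and none at 0. The 5 sinusoidal markers summed to 17944 CPM in young and 13479.5 CPM in old SEC, with *Stab2* the most abundant, 0 higher and 0 lower past 2-fold of 5 that passed, and none at 0. The 15 hematopoietic markers summed to 373 CPM in young and 796 CPM in old SEC, with *Srgn* the most abundant, 6 higher and 0 lower past 2-fold of 8 that passed, and none at 0. Without the 1 old cell with at least 7 of them, 7 of 8 held members were past 2-fold, the smallest ratio 0.998 in size. MSC-S markers went from 298 to 856 CPM, with 3 higher and 0 lower past 2-fold of 4 that passed. The 6 osteoblast markers summed to 1065 CPM in young and 266 CPM in old SEC, with *Ibsp* the most abundant, 2 higher and 1 lower past 2-fold of 4 that passed, and *Bglap* at 0 at both ages. Of 71 old cells 44 were SEC-like, of 70 young cells 59, and in SEC-like cells alone *Adamts5* stood at -1.33, *Adamts2* at -2.24, *Mmp15* at 1.45, *Adamtsl2* at -3.19 and *Adamts12* at -1.51, all past 2-fold. *Mmp19*, *Mmp2* and *Adamts6* were at -0.73, 0.89 and 0.56 there and fell short of it. With clusters E1 and E2 left out, *Adamts5* stood at -1.83, *Adamts2* at -2.54 and *Mmp15* at 1.93, and *Mmp19* at -0.28 was no longer past 2-fold. The part of the markers in these differences was not tested.

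**Figure D3:**
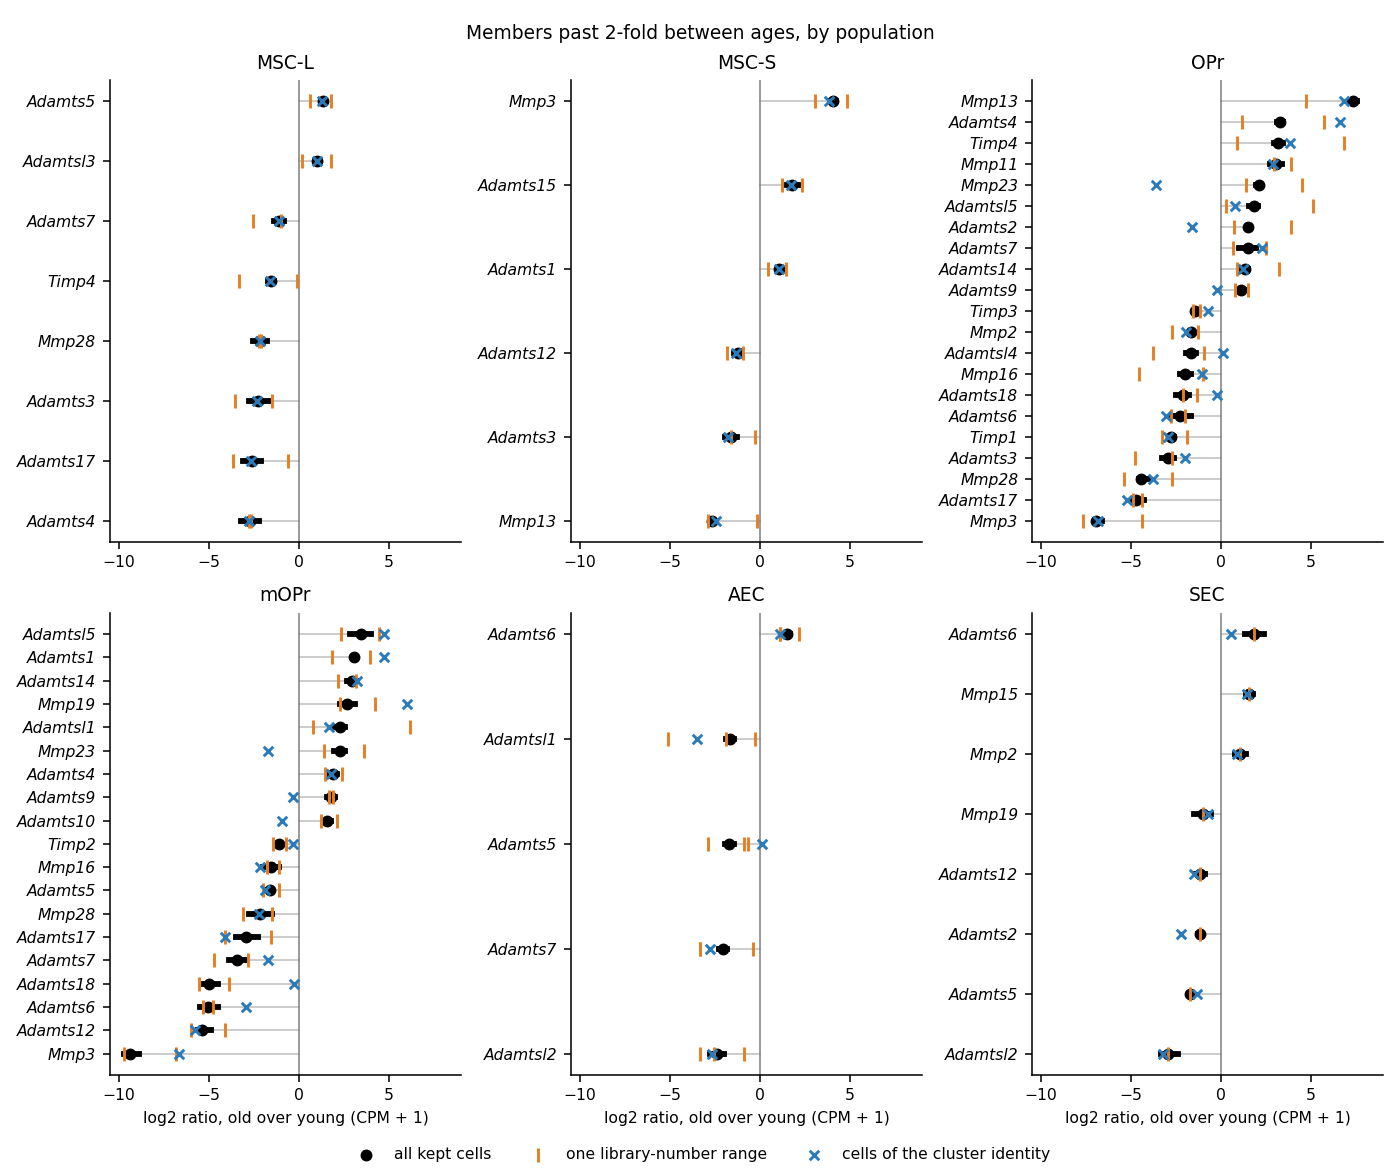
Log2 ratios of old against young cells for the members that held in each population, with all kept cells as black dots and their 95% counting interval, single library-number ranges as orange ticks and cells of the cluster identity alone as blue crosses. In OPr and mOPr the crosses of *Mmp23*, *Adamts9* and *Adamts2* (OPr) or *Adamts10* (mOPr) lie below 0 while their dots lie above it.

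Side by side, *Adamts5* was higher in old MSC-L and lower in old mOPr, AEC and SEC, at 1.32, -1.63, -1.71 and -1.75, and at -0.31 in MSC-S and -0.14 in OPr it was not past 2-fold. *Adamts1* had log2 ratios of -0.15 in MSC-L, 1.06 in MSC-S, 2.30 in OPr, 3.06 in mOPr, 0.31 in AEC and -0.32 in SEC, so it was past 2-fold and higher in old cells of the 3 endosteal mesenchymal populations, though not held in OPr. *Mmp28* and *Adamts17* held as lower in old MSC-L, OPr and mOPr. Without holding, *Mmp28* was also lower in old AEC, and *Adamts17* lower in old MSC-S and higher in old AEC. Held in both OPr and mOPr, *Mmp23*, *Adamts9*, *Adamts14*, *Adamts4* and *Adamtsl5* were higher in old cells, and *Mmp3*, *Mmp16*, *Adamts6* and *Adamts18* lower. OPr and mOPr share tissue and digestion, both held more MSC-L-like cells in old mice, and the part of that shift in the common directions was not tested.

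Across the deposited clusters, described here without a test because the clusters were built on the same counts, several members were highest in a few clusters. *Mmp13* stood at 95.4 CPM per kb in M1 and 508 in M2, the MSC-L-like clusters, 115 in M5, 65.4 in M12 and 1008 in the 4 cells of M14. M2 thus had more of it than M1, whereas the guide gene *Mmp23* was higher in M1, at 118 against 54.5 CPM per kb. *Timp1* peaked in M3, at 1040.4 CPM per kb, and in M15, at 759, against 138 in M4 and 129 in M5. *Mmp3* stood at 604 CPM per kb in M15 and 238 in M12, and at 1707 in the single cell of M10. All 17 cells of M15 were young, and all 10 cells of M9 were old, where *Adamts1* stood at 299 CPM per kb, above the 108 of M12 and the 57.8 of M16. In the endothelial clusters *Adamts1* peaked in E2, the pericytes, at 937 CPM per kb, and was at 460.4 in E3, 338 in E4, 54.4 in E5, 138 in E6 and 404 in E7. The guide gene *Adamts5* stood at 126 CPM per kb in E7 and at most 3.55 in E3 to E6, and the guide gene *Adamts9* was highest in E2 and E4, at 44.1 and 36.8. In E1, the doublets, *Mmp13*, *Adamts2* and *Mmp23* reached 107, 97.1 and 55.5 CPM per kb, where no other endothelial cluster passed 0.290, 4.73 and 8.63.

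**Figure D4:**
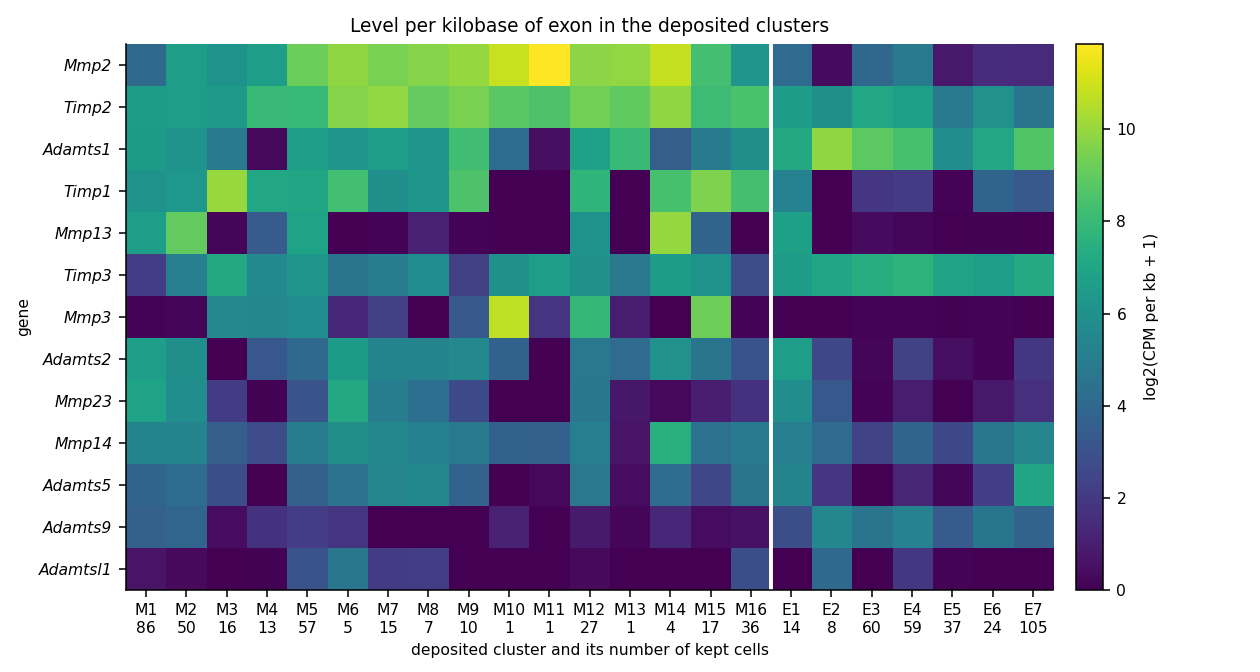
Levels of 13 members, the 10 highest per kilobase, the 3 highest of each population and the guide genes *Adamts9* and *Adamtsl1* among them, as log2(CPM per kb + 1) in clusters M1 to M16 and E1 to E7. *Mmp13* is highest in M14 and M2, *Timp1* in M3 and *Adamts5* in E7.

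Of the 23 MMP genes, 10 lie together on chromosome 9, between 7272514 and 7699585 (GRCm38), in the order *Mmp13*, *Mmp12*, *Mmp1b*, *Mmp3*, *Mmp1a*, *Mmp10*, *Mmp8*, *Mmp27*, *Mmp20* and *Mmp7* within 427 kb. In the kept cells 2 of these 10, *Mmp13* and *Mmp3*, passed the filter, and they were high in different groups, *Mmp13* in MSC-L and old OPr and mOPr, and *Mmp3* in young mOPr and OPr and old MSC-S. RefSeq promoters (GRCm38.p6, 250 bases before to 50 after the start) matched 36 of 51 members with 39 promoters. The letters TGACTCA or TGAGTCA, the AP-1 motif, were found in promoters of 7 of the 10 genes of this stretch and 0 of 26 other members with a promoter, and in 5.20% of all 32851 promoters. Shown are the promoters of *Mmp13*, *Mmp3* and *Mmp10*, 5′ to 3′ on the plus strand, with the motif in capitals, its first base 35, 46 and 63 bases before the start. The match describes the letters alone, at chr9:7272264-7272563, chr9:7445572-7445871 and chr9:7502092-7502391.
Mmp13: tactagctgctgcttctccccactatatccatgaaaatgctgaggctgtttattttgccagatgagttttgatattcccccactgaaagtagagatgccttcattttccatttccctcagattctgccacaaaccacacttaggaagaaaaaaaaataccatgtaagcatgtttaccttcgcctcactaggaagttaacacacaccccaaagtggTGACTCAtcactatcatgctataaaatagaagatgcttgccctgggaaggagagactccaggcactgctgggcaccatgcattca
Mmp3: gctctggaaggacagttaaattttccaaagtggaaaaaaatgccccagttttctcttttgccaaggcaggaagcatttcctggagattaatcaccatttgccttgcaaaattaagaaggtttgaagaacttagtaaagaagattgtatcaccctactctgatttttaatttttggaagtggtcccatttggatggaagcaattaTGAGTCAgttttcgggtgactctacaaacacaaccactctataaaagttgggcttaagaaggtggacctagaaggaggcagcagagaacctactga
Mmp10: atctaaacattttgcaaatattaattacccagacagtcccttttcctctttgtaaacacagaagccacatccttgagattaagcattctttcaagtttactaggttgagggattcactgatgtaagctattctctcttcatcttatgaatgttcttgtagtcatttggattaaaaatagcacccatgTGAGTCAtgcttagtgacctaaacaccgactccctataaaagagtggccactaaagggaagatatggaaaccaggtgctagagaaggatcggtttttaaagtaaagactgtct

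Genes that act with the members were followed on 6 lists of 44 partners: activation, other inhibitors, tolloid procollagen proteases, uptake and docking, ADAM sheddases and other matrix proteases. Averaged over the 12 groups, among the highest were *Bsg* at 256, *Plau* at 44.2 and *Pcsk6* at 41.3 CPM per kb for activation, *Cst3* at 1927 and *Serpine2* at 232 for inhibition, and *Pcolce* at 144, *Pcolce2* at 30.04 and *Bmp1* at 19.5 for the tolloid list. Between ages 2 higher and 5 lower of 31 (22.6%, all genes 25.4%) partners that passed were past 2-fold in MSC-L, 3 higher and 1 lower of 37 (10.8%, all genes 19.7%) in MSC-S, 7 higher and 8 lower of 36 (41.7%, all genes 44.8%) in OPr, 9 higher and 7 lower of 36 (44.4%, all genes 44.5%) in mOPr, 5 higher and 10 lower of 35 (42.9%, all genes 21.1%) in AEC and 7 higher and 6 lower of 35 (37.1%, all genes 20.7%) in SEC. Among the held ones in old against young MSC-L were *Htra1* from 619.9 to 125 CPM, *A2m* from 74.2 to 0.256, *Pcsk5* from 127 to 57.2 and *Cd44* from 13.4 to 40.1, and in MSC-S *Fap* from 212 to 1147 CPM and *Spock2* from 34.6 to 7.94, where *Fap* encodes a membrane serine protease of fibroblasts. Held in OPr were 12 of 36 partners that passed (all genes 29.6%), and in mOPr 15 of 36 (all genes 31%). Those in OPr included *Pcsk6* from 233 to 18.97 CPM, *Pcolce2* from 403 to 33.5, *Plaur* from 156 to 6.80 and *Serpine2* from 922 to 3344. Those in mOPr included *Htra1* from 2978 to 174 CPM, *Pcolce2* from 163 to 0.400 and *Cd44* from 282 to 46.8. *Serpine2* from 886 to 3997 CPM and *Pappa* from 11.5 to 403 held in mOPr as well. *Serpine2*, an inhibitor of plasminogen activators, and *Pappa* were also higher in young MSC-L than in young MSC-S, and the part of the MSC-L-like cells of old OPr and mOPr in these rises was not tested. *Tll1*, a procollagen protease, stood at 19.4 CPM in young OPr and 33.7 CPM in young mOPr and had no count in the old cells of either. Against a floor of 3 counts over the old group it was 104-fold and 140.1-fold lower, which is no minimum. Those in AEC included *Tfpi2* from 68.7 to 3.13 CPM, *Itgb3* from 17.2 to 62.2, *Adam19* from 21 to 2.49 and *Ctsl* from 697 to 299, and those in SEC *Tfpi2* from 46.1 to 12.9 CPM, *Itgb3* from 4.47 to 186, *Adam19* from 18.5 to 6.71, *Papln* from 176 to 43.2 and *Adam15* from 169.9 to 377.

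Between young populations 14 higher and 7 lower of 36 (58.3%, all genes 45.5%) partners were past 2-fold in MSC-S against MSC-L, 6 higher and 15 lower of 38 (55.3%, all genes 36.3%) in OPr against MSC-S and 9 higher and 13 lower of 34 (64.7%, all genes 42.2%) in AEC against SEC. MSC-S had more of the plasminogen activator genes than MSC-L, with *Plat* at 289 against 2.46 CPM and *Plau* at 136 against 6.05, more *Plaur* at 74.9 against 0.438 CPM and *Pcsk6* at 921 against 5.61, and less *Pappa* at 11.6 against 1572 CPM, *Serpine2* at 714 against 5391 and *Adam12* at 13.02 against 128. In OPr against MSC-S, *Plau* at 5.59 against 136 CPM, *Plat* at 26.4 against 289, *Htra1* at 307 against 1570.4, *Pcsk6* at 233 against 921, *Lrp1* at 1299.6 against 3094 and *Ctsb* at 679 against 1783 were lower, and *Pappa* at 208 against 11.6 CPM and *A2m* at 116 against 0.174 higher. SEC had more of the cathepsins and AEC more *Plat*, with *Ctsl* at 1294 against 6068 CPM, *Ctsb* at 985 against 2530.0, *Serpine2* at 76.98 against 737 and *Plat* at 91.8 against 0.456 in AEC against SEC. *Plat* had a count in 10 of these 24 AEC cells, with 54.7% of its counts in 1 cell. Cluster E1, the doublets, held 9 of the 70 SEC cells. Partners were not followed in the alternative settings, and the part of cluster identity in their differences was not tested.

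Counting without strand can change the counts of genes that overlap on opposite strands, and 13 members share exon bases with such a gene. The share was 10% or more of a member's exon for 7, namely 22.3% for *Mmp19* with *Tmem198b*, 21.3% for *Timp3* with *Syn3*, 13.6% for *Mmp24* with *BC029722*, 12.03% for *Mmp28* with *1700020L24Rik*, 11.5% for *Mmp7* with *AV064505*, 10.8% for *Mmp1b* with *Mmp12* and 10.6% for *Adamts8* with *Gm29724*. The effect of these overlaps on levels was not tested. The 11 members that passed the filter in no comparison were *Adamts13*, *Mmp1a*, *Mmp1b*, *Mmp7*, *Mmp8*, *Mmp10*, *Mmp12*, *Mmp20*, *Mmp21*, *Mmp24* and *Mmp27*, with 0 to 195 counts over all kept cells. *Adamts8*, *Adamts19*, *Adamts20*, *Mmp9* and *Mmp25* passed in 1 comparison each and held in none.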

How the data were processed

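Single cells of 6 sorted populations at 2 ages were sequenced on plates, and the authors aligned the reads with GSNAP (2015-09-29) to GRCm38.p4 and counted them per gene with HTSeq and Ensembl 81, without strand. The deposited values are counts per gene and cell, not normalized, and were used as such. Entries with the same symbol were summed. Counts were scaled to the nuclear total of a cell or group, and the median depth of each group and the range over all kept cells stand with the cell numbers. Exon lengths came from GENCODE M21. Members and lists (10 roles, 6 of partners, and markers of cell types) were chosen with earlier results of these data known. Genes are named when they held, were past 2-fold, were among the highest, or passed no filter. Alternatives covered the weight of cells, size factors, thinning to 100000 counts per cell (7 shallower cells left out), a pseudocount of 0.1 CPM, no filter, single library-number ranges, cluster identity, cells with *Il1b* kept, cells with at least 7 of 15 hematopoietic markers left out, and the highest cells left out. Leaving out clusters E1 and E2 was added after the values had been seen. The scripts were tested on simulated data. They ran on matplotlib 3.10.9, scipy 1.17.1, pandas 2.3.3 and numpy 2.4.6 under Python 3.11.15.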

Additional observations from a re-analysis of the deposited data

Results flagged for a closer look

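Members whose age difference held in opposite directions in different populations were, with their log2 ratios of old against young cells, *Adamts2* (1.50 in OPr and -1.16 in SEC), *Adamts4* (-2.73 in MSC-L, 3.27 in OPr and 1.87 in mOPr), *Adamts5* (1.32 in MSC-L, -1.63 in mOPr, -1.71 in AEC and -1.75 in SEC), *Adamts6* (-2.28 in OPr, -5.05 in mOPr, 1.48 in AEC and 1.86 in SEC), *Adamts7* (-1.11 in MSC-L, 1.48 in OPr, -3.45 in mOPr and -2.06 in AEC) and *Adamtsl1* (2.27 in mOPr and -1.68 in AEC). The same was true of *Mmp2* (-1.66 in OPr and 1.06 in SEC), *Mmp3* (4.07 in MSC-S, -6.96 in OPr and -9.36 in mOPr), *Mmp13* (-2.66 in MSC-S and 7.33 in OPr), *Mmp19* (2.69 in mOPr and -1.02 in SEC) and *Timp4* (-1.56 in MSC-L and 3.17 in OPr). These are 11 of 39 members (28.2%), against 11.1% of all genes that passed. In cells of the cluster identity alone, *Adamts2* in OPr turned, to -1.63, and *Adamts5* in AEC, to 0.12. *Mmp2*, *Mmp19* and *Adamts6* fell short of 2-fold in SEC-like cells alone. *Adamts2* in SEC did so with the mean of CPM, size factors and thinning, and *Mmp19* in SEC with size factors. The differences between populations were not tested. Where no count was seen, as for *Mmp3* in old OPr, the ratio depends on the added 1 CPM and is no bound. In the 8 old OPr cells left out for *Il1b*, *Mmp9* at 3072 CPM and *Mmp8* at 612 CPM stood above what a count of 0 allows, and these cells entered only the alternative that keeps them.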

How the results depend on the processing

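No paired analysis was possible because the labels name no mouse. The 9 counts of members past 2-fold were computed under 101 alternatives, and 92 lay within 1.5 times the reported count. The other 9 were 6 of MSC-L thinned to 100000 counts and 6 in range 1 alone (12 reported), 5 of MSC-S thinned (10), 11 of mOPr in OPr-like cells alone (20), 10 of AEC thinned, and 9, 10 and 7 in ranges 1, 2 and 3 (17), and 11 of AEC against SEC without clusters E1 and E2 (18). The cause was not tested.

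The 119 log2 ratios followed are those that held, so opposite signs in a range and a loss without the highest cells were excluded beforehand, and *Mmp13* in mOPr, 2.35 and in range 1 -3.72, is not among them. Counted by ratio size alone, without the filter, 112 were still past 2-fold in their direction with the mean of CPM. The number was 109 with size factors, 111 thinned, 98 with cells of the cluster identity alone, and 25 of 29 without E1 and E2. Opposite signs with the cluster identity were *Adamts2* -1.63, *Adamts9* -0.20, *Adamtsl4* 0.13 and *Mmp23* -3.58 (0 counts in old cells) in OPr, *Adamts9* -0.32, *Adamts10* -0.97 and *Mmp23* -1.72 in mOPr, *Adamts5* 0.12 in AEC, and *Adamts14* 0.98, *Adamtsl4* -0.45, *Mmp17* -0.69 and *Mmp23* 2.36 in AEC against SEC. Without E1 and E2, *Adamts14* was at 0.40 and *Mmp23* at 0.81 in AEC against SEC. The cause was not tested.

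The median over all genes moved by over 0.1 with identity in OPr (-0.15) and AEC against SEC (-0.40), without the highest cells in OPr (-0.33), mOPr (-0.19), AEC against SEC (-0.45) and OPr against MSC-S (-0.14), in range 1 in OPr (-0.26), mOPr (-0.21) and MSC-S against MSC-L (0.13), in range 2 in OPr (0.11), with size factors in OPr (-0.15), with the mean of CPM in OPr against MSC-S (-0.12), without the filter in OPr (-0.24) and MSC-S against MSC-L (0.25), and thinned in OPr (0.17) and OPr against MSC-S (-0.15). Of 420 shares of cells, 407 lay within their interval after thinning, 312 at a threshold of 1 CPM and 223 at 100 CPM. Ranges 1 and 2 give no value for SEC, and range 3 none for the mesenchymal cells.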

Other observations

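With 1 sample per population and age, no difference here can be separated from differences between mice, sorts or library batches. Counting intervals leave out the spread between cells, which was wide for *Mmp3* and *Mmp13*. Marrow and endosteal cells differ in site and digestion as well as in cell type. Age was compared within each gate, and the gates of old OPr and mOPr held more MSC-L-like cells. Transcript levels do not measure protease activity, which depends on activation and inhibition of the proteins.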
